A study of Mus musculus with 29 samples.

Results

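The genes described here are 10 components of fibroblast growth factor (FGF) signalling that were chosen by name. They are the receptor genes Fgfr1, Fgfr2 and Fgfr3, the ligand gene Fgf15, the ETS transcription factor genes Etv4 and Etv5, the Sprouty genes Spry1, Spry2 and Spry4, and the phosphatase gene Dusp6. All 10 are listed among the 38355 genes of the untreated count tables and the 48709 genes of the treated ones, and all 10 passed the filter on low counts in both experiments. The H3K27me3 peaks at these genes were examined beside their RNA.

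FGF ligands bind receptor tyrosine kinases at the cell surface and switch on the Ras, MAPK and ERK cascade. In the developing cortex this pathway acts in neural progenitors, where it is known for its part in cortical patterning and in keeping progenitors dividing. Etv4 and Etv5 are ETS factors whose transcription follows ERK activity. The Sprouty proteins and Dusp6 are induced by the same cascade and restrain it, the former upstream at the level of Ras and Raf and the latter by removing phosphate from ERK.

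The study deleted BAF155 (Smarcc1) and BAF170 (Smarcc2), scaffold subunits of the BAF chromatin remodelling complex, in the developing mouse cortex on a C57BL/6J background. The tissue was examined at E17.5. The deletion was driven by hGFAP-Cre, which acts in late radial glial progenitors and the cells that descend from them, so that vessels, meninges and earlier-born cells keep both genes. RNA was sequenced from 7 untreated cortices, in the groups C (n = 4) and M (n = 3), and from 12 cortices of treated litters. The treated groups were wild type with vehicle (WT vehicle, n = 4), double conditional knockout with vehicle (dcKO vehicle, n = 4) and double conditional knockout with a Wnt inhibitor (dcKO Wnt inhibitor, n = 4). Vehicle or the inhibitor ICG-001 was injected into the pregnant dam. H3K27me3, the histone mark laid down by Polycomb repressive complex, was profiled in groups C (n = 4) and K (n = 4) by ChIP-seq. C denotes control and M and K denote dcKO according to the tables of the study, whose methods describe controls as littermates that carry Cre and are heterozygous for both floxed genes, while the deposited genotype reads dcKO for C as well. No label states whether libraries of a group came from separate embryos, so p-values measure the spread between these libraries.

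Total counts ran from 11946658 to 28391046 per untreated library and from 12514443 to 26600594 per treated library. Levels are given in CPM, the count of a gene scaled to the size of its library, after TMM normalization done separately in each experiment. The deleted genes were examined first because they check the labels. Smarcc1 measured 247, 264, 269 and 248 CPM in untreated C 1 to 4 and 245, 128 and 135 CPM in untreated M 2, 3 and 4. It measured 245, 266, 299 and 256 CPM in WT vehicle 1 to 4, 136, 242, 133 and 138 CPM in dcKO vehicle 1 to 4, and 214, 252, 140 and 173 CPM in dcKO Wnt inhibitor 1 to 4. The libraries labelled untreated M 2, dcKO vehicle 2 and dcKO Wnt inhibitor 1 and 2 thus carried Smarcc1 near or within the range of the controls, and dcKO Wnt inhibitor 4 lay in between. Smarcc2 showed the same division, with 670 CPM in untreated M 2 against 399 and 398 CPM in untreated M 3 and 4, and 692 CPM in dcKO vehicle 2 against 425 to 439 CPM in the other dcKO vehicle libraries. In dcKO Wnt inhibitor 1 to 4 it measured 644, 695, 416 and 586 CPM, beside 664 to 834 CPM in WT vehicle. All libraries were kept under their labels. Fold changes of the members are given with all libraries and without those in doubt, namely untreated M 2, dcKO vehicle 2 and dcKO Wnt inhibitor 1 and 2. The fits without these 4 still hold dcKO Wnt inhibitor 4, whose levels of both deleted genes were intermediate.

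The untreated and the vehicle libraries were not taken as separate evidence. In 7 pairs, an untreated and a vehicle library share a group and a number. Deviations from the mean over both genotypes of each experiment correlated positively in all 7 pairs over 9954 genes (r between 0.291 and 0.926). The difference between genotypes remains in these r values, and the labels of a pair share only their group and number. In 5 of the 7 pairs the same-numbered library was also the best match. The choroid plexus transcript Ttr measured 4.22, 12.9, 3.52 and 117 CPM in untreated C 1 to 4 and 3.9, 11.1, 3.04 and 111 CPM in WT vehicle 1 to 4. Whether the tissue was shared was not tested, and the 2 experiments are set side by side below without being counted as repeats of each other. The library labelled dcKO vehicle 1 held both Xist at 687 CPM and the Y-linked Eif2s3y at 36.7 CPM, whereas every other treated library held only one of them above 5 CPM. This library was kept in the fits without dcKO vehicle 2, and its part in their calls was not tested.

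Promoter sequences, which show where the histone mark described further on meets a start site, were taken from RefSeq for GRCm38.p6, the build of the mm10 files. Of the 10 genes 6 have an entry, and none is held for Fgfr1, Fgf15, Etv4 and Spry4. The 250 bases before the start are shown for Fgfr2 (chr7:130266809-130267058, minus strand), whose nearest peak ended 198 bp inside the gene, and for one start each of Fgfr3 (chr5:33721474-33721723, plus strand) and Etv5 (chr16:22438369-22438618, minus strand), which lay in regions of H3K27me3. The promoters used here hold 2 entries for each of the latter genes, although RefSeq transcripts give 3 starts for Fgfr3. The Etv5 start shown lay in a peak of the library H3K27me3 K 4 only. The sequences run 5′ to 3′ with CG dinucleotides in capitals.
Fgfr2: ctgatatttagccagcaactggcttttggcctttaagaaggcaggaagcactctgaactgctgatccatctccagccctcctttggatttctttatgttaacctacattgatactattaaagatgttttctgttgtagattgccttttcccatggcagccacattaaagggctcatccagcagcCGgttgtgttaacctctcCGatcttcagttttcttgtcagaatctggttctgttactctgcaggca
Fgfr3: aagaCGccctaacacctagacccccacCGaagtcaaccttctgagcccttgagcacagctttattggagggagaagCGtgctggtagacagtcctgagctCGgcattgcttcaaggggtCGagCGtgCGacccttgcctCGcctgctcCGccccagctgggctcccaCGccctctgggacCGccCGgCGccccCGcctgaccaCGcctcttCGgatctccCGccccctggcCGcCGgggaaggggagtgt
Etv5: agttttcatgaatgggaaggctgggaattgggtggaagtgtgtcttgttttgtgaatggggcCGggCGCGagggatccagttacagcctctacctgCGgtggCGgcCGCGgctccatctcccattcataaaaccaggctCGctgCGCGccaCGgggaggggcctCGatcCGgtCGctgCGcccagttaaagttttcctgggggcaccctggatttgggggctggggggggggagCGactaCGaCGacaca
The promoter of Fgfr2 stood apart from the others by its low CG content. It held 2 CG dinucleotides, and 18.8% of all 32851 promoters of this length held fewer. The promoters shown for Fgfr3 and Etv5 held 19 and 18, more than 80.3% and 78.3% of promoters, respectively, and the promoters not shown held 24 and 27. The promoters of Dusp6, Spry1 and Spry2 held 16, 23 and 23, and the median promoter held 6. Neither the ETS core CCGGAA, the cAMP response element TGACGTCA nor the TCF/LEF letters CTTTGAA and CTTTGAT occurred on either strand of any of these windows. These motifs occur in 12%, 1.5% and 7.5% of all such promoters.

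Per kilobase of RefSeq exon, Fgfr1 had the highest level of the 10 genes in every group and Fgf15 the lowest. In untreated C the mean levels were 38.9 ± 2.80 CPM per kb for Fgfr1 (SD, n = 4), 16.1 ± 0.88 for Spry2, 12.5 ± 1.46 for Fgfr3, 11.7 ± 1.38 for Dusp6 and 9.42 ± 0.69 for Fgfr2. Below these came Etv5 at 8.80 ± 0.93, Etv4 at 5.81 ± 0.48, Spry1 at 4.73 ± 0.28, Spry4 at 2.80 ± 0.52 and Fgf15 at 0.96 ± 0.22 CPM per kb. The intervals of the mean ± SD overlapped for the neighbours Fgfr3 and Dusp6 and for Fgfr2 and Etv5, so these neighbours did not differ beyond their spread. WT vehicle gave the same order of means, from 44.1 ± 5.06 CPM per kb for Fgfr1 down to 0.95 ± 0.23 for Fgf15. The place of Fgfr2 moved most. It was the fifth in untreated C and WT vehicle, the third in untreated M with 14.03 ± 2.50 CPM per kb (n = 3) and in dcKO vehicle with 13.9 ± 2.25 (n = 4), and the fourth in dcKO Wnt inhibitor with 11.1 ± 2.18.

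**Figure D1:**
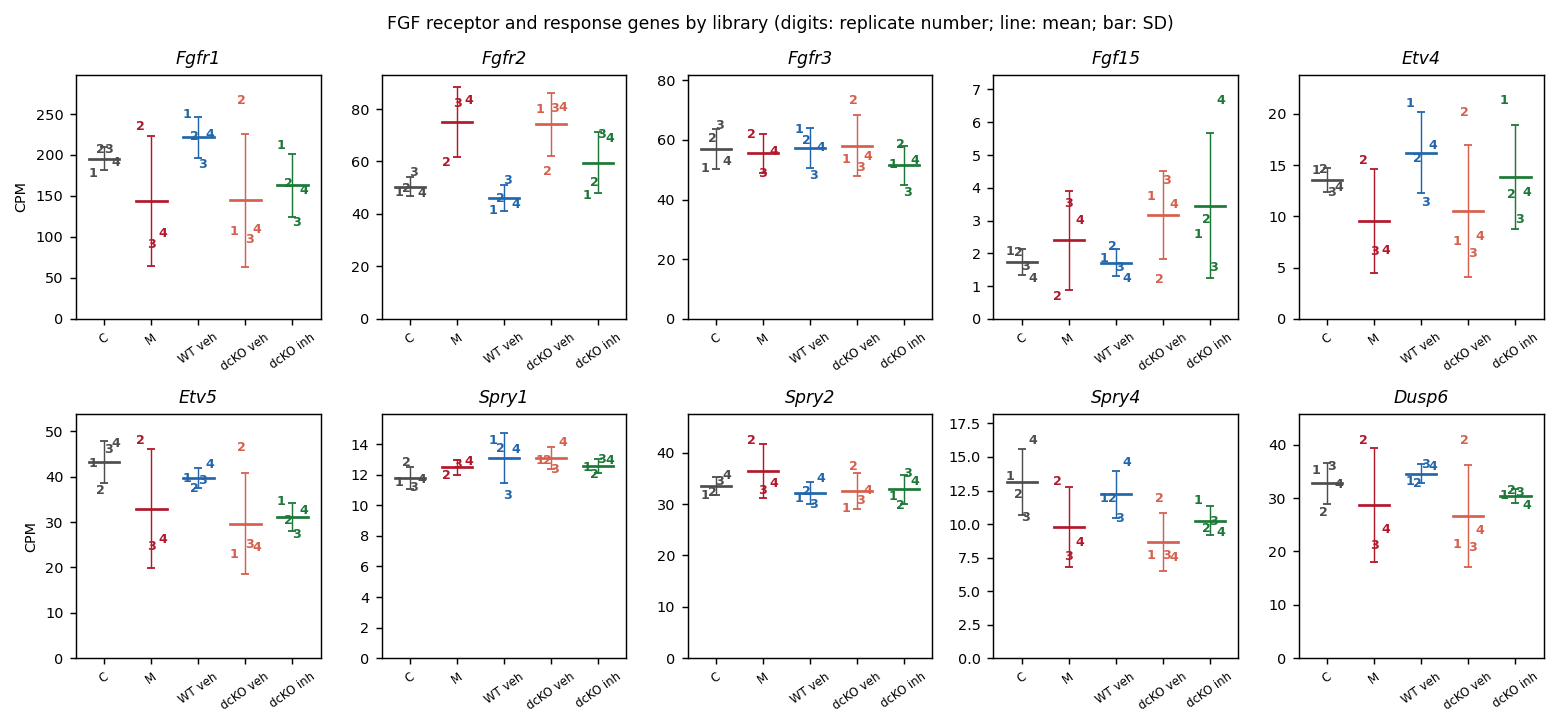
TMM-scaled CPM (vertical axes, from 0) of each gene in the 19 RNA libraries, by group (horizontal axes), where veh stands for vehicle and inh for Wnt inhibitor. Each digit is the replicate number of a library, the horizontal line is the group mean and the bar its SD. For Fgfr1, Etv4, Etv5 and Dusp6 the libraries labelled untreated M 2 and dcKO vehicle 2 lie above all others of their groups, and for Fgfr2 below them.

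The receptors were taken up first. Fgfr2, which encodes a receptor tyrosine kinase, was the 1 member whose level did not overlap between genotypes with all libraries kept, and it was higher in both experiments. Of all genes, 6.96% were higher and 6.21% lower without overlap in M against C, and 3.08% and 2.58% in dcKO vehicle against WT vehicle, so that 1 of 10 members was close to the share of all genes in the former. It measured 48.1, 49.8, 55.7 and 47.8 CPM in untreated C 1 to 4 and 59.6, 82.3 and 83.2 CPM in untreated M 2, 3 and 4. In the treated experiment it measured 41.5, 45.9, 52.8 and 43.7 CPM in WT vehicle 1 to 4 and 79.6, 56.2, 80.3 and 80.5 CPM in dcKO vehicle 1 to 4. Every library labelled M or dcKO vehicle was higher than every library of its comparison group, and in both cases number 2 was the lowest of them. The log2 fold change was 0.58 (SE 0.114, adjusted p = 0.107, edgeR quasi-likelihood test with Benjamini-Hochberg adjustment) in M against C and 0.69 (SE 0.153, adjusted p = 0.221) in dcKO vehicle against WT vehicle.

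With all libraries, no member passed an adjusted p under 0.05 in edgeR in either comparison of genotypes. Of all genes tested, 0.00634% (1 of 15770) passed in M against C and 0.00611% (1 of 16372) in dcKO vehicle against WT vehicle. At an unadjusted p under 0.01, Fgfr2 passed in both, beside 5.46% and 2.85% of all genes. At an unadjusted p under 0.05, 1 member passed in M against C beside 16% of all genes, and 4 members (Fgfr1, Fgfr2, Etv5 and Spry4) passed in dcKO vehicle against WT vehicle beside 9.46% of all genes. DESeq2 called Fgfr2 and no other member in M against C (adjusted p = 0.00139, beside 3.44% of all genes) and in dcKO vehicle against WT vehicle (adjusted p = 0.0124, beside 0.636%).

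Without the library labelled untreated M 2, 7 of the 10 members passed an adjusted p under 0.05 in edgeR, 2 higher and 5 lower, beside 12.4% of all genes (1994 of 16024). Without the library labelled dcKO vehicle 2, 6 of the 10 passed in dcKO vehicle against WT vehicle, 1 higher and 5 lower, beside 3.4% of all genes (562 of 16526). In each of these fits 7 members did not overlap between genotypes, 2 higher and 5 lower. Among all genes, 18.9% were higher and 18.4% lower without overlap once M 2 was left out, and 9.17% and 9.28% once dcKO vehicle 2 was left out. These shares stand behind every statement below that the remaining libraries lay above or below all controls. The median log2 fold change of the 10 members was -0.33 and -0.39 in these fits, where that of all genes was 0.00 and -0.01. Fgfr2 rose in both, by a log2 fold change of 0.71 (SE 0.0726, adjusted p = 0.000182, edgeR) without M 2 and 0.80 (SE 0.141, adjusted p = 0.00998) without dcKO vehicle 2.

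Fgfr1, which encodes the most abundant receptor of the list, moved in the opposite direction. It measured 177, 206, 207 and 191 CPM in untreated C 1 to 4 and 235, 90.9 and 105 CPM in untreated M 2, 3 and 4. In the treated experiment it measured 250, 222, 188 and 225 CPM in WT vehicle 1 to 4 and 107, 266, 97.3 and 109 CPM in dcKO vehicle 1 to 4. The libraries labelled M 2 and dcKO vehicle 2 were the highest of all in their experiments, and the remaining M and dcKO vehicle libraries were all lower than their controls. The log2 fold change was -0.46 (SE 0.323, adjusted p = 0.539, edgeR) with all M libraries and -0.61 (SE 0.281, adjusted p = 0.522) with all dcKO vehicle libraries. Without M 2 Fgfr1 fell with a log2 fold change of -1.001 (SE 0.0843, adjusted p = 6.26e-05, edgeR), and without dcKO vehicle 2 with one of -1.09 (SE 0.166, adjusted p = 0.00557).

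Fgfr3, the receptor gene that marks radial glia and later astrocytes, ranged from 50.5 to 64.7 CPM in untreated C, 48.7 to 61.8 CPM in untreated M, 48.1 to 63.7 CPM in WT vehicle and 50.8 to 73.2 CPM in dcKO vehicle. The groups overlapped in both experiments. The log2 fold changes were -0.04 (adjusted p = 0.88, edgeR) and 0.02 (adjusted p = 0.996), and -0.13 (SE 0.108, adjusted p = 0.513) and -0.12 (SE 0.124, adjusted p = 0.82) without the number 2 libraries. The 3 receptor genes therefore gave a higher, a lower and an uncalled value in the same fits.

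Fgf15, which encodes a secreted ligand, was the only ligand among the members. It was rare throughout, at 2.06, 2.04, 1.60 and 1.22 CPM in untreated C 1 to 4 and 0.67, 3.52 and 2.99 CPM in untreated M 2, 3 and 4. WT vehicle 1 to 4 held 1.84, 2.20, 1.57 and 1.24 CPM and dcKO vehicle 1 to 4 held 3.74, 1.20, 4.23 and 3.50 CPM. Except for number 2, which was the lowest library in each experiment, the M and dcKO vehicle libraries lay above all controls. With all libraries the log2 fold changes were 0.55 (SE 0.416, adjusted p = 0.56, edgeR) and 0.89 (SE 0.442, adjusted p = 0.566). Without M 2 Fgf15 rose with a log2 fold change of 0.91 (SE 0.228, adjusted p = 0.0266, edgeR), whereas without dcKO vehicle 2 the value of 1.16 (SE 0.392, adjusted p = 0.15) did not pass.

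Etv4 and Etv5, the ETS factors transcribed in response to ERK, were low in the same libraries as Fgfr1. Etv4 measured 14.5, 14.5, 12.3 and 12.8 CPM in untreated C 1 to 4 and 15.4, 6.59 and 6.66 CPM in untreated M 2, 3 and 4. It measured 20.97, 15.7, 11.3 and 16.9 CPM in WT vehicle 1 to 4 and 7.53, 20.2, 6.36 and 8.02 CPM in dcKO vehicle 1 to 4. The library with number 2 lay among or above the controls in each experiment, and the others lay below every control. The log2 fold change of Etv4 was -0.55 (SE 0.287, adjusted p = 0.395, edgeR) with all M libraries and -1.03 (SE 0.121, adjusted p = 0.000448) without M 2. It was -0.63 (SE 0.347, adjusted p = 0.61) with all dcKO vehicle libraries and -1.16 (SE 0.262, adjusted p = 0.0301) without dcKO vehicle 2.

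Etv5 measured 42.9, 37.0, 45.9 and 47.3 CPM in untreated C 1 to 4 and 48.1, 24.5 and 26.2 CPM in untreated M 2, 3 and 4. In WT vehicle 1 to 4 it measured 39.5, 37.4, 39.3 and 42.6 CPM and in dcKO vehicle 1 to 4 22.8, 46.5, 25.1 and 24.4 CPM. As for Etv4, number 2 was the highest library of its group and the rest were below every control. Without M 2 Etv5 fell with a log2 fold change of -0.77 (SE 0.106, adjusted p = 0.00115, edgeR) and without dcKO vehicle 2 with one of -0.72 (SE 0.108, adjusted p = 0.00557), while with all libraries the values were -0.41 (SE 0.23, adjusted p = 0.424) and -0.42 (SE 0.191, adjusted p = 0.511).

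Among the feedback inhibitors, Spry4 and Dusp6 were low in these libraries and Spry1 and Spry2 were not. Dusp6, the ERK phosphatase, measured 35.3, 27.4, 35.8 and 32.6 CPM in untreated C 1 to 4 and 40.9, 21.1 and 24.03 CPM in untreated M 2, 3 and 4. In the treated experiment it measured 33.2, 32.8, 36.4 and 35.9 CPM in WT vehicle 1 to 4 and 21.2, 40.7, 20.7 and 23.9 CPM in dcKO vehicle 1 to 4. Number 2 was above all controls in both experiments and the remaining libraries were below them. Without M 2 Dusp6 fell with a log2 fold change of -0.54 (SE 0.119, adjusted p = 0.0149, edgeR) and without dcKO vehicle 2 with one of -0.66 (SE 0.1, adjusted p = 0.00557), against -0.21 (SE 0.219, adjusted p = 0.682) and -0.37 (SE 0.179, adjusted p = 0.538) with all libraries.

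Spry4, a Sprouty gene, measured 13.6, 12.2, 10.5 and 16.3 CPM in untreated C 1 to 4 and 13.2, 7.57 and 8.60 CPM in untreated M 2, 3 and 4. It measured 11.9, 11.9, 10.4 and 14.6 CPM in WT vehicle 1 to 4 and 7.62, 11.9, 7.67 and 7.51 CPM in dcKO vehicle 1 to 4. The number 2 libraries lay inside the range of the controls and the others below it. The log2 fold change was -0.45 (SE 0.21, adjusted p = 0.335, edgeR) and -0.50 (SE 0.169, adjusted p = 0.358) with all libraries, and -0.70 (SE 0.17, adjusted p = 0.024) and -0.69 (SE 0.143, adjusted p = 0.0199) without the number 2 libraries.

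Spry1 and Spry2 gave values close to 0 throughout. Spry1 ranged from 10.7 to 14.3 CPM over all 19 libraries and Spry2 from 29.1 to 42.5 CPM, and their groups overlapped in every comparison with all libraries. With all libraries the log2 fold changes in M against C and in dcKO vehicle against WT vehicle were 0.09 (SE 0.0957, adjusted p = 0.704, edgeR) and 0.00 (SE 0.113, adjusted p = 0.999) for Spry1, and 0.11 (SE 0.0996, adjusted p = 0.62) and 0.01 (SE 0.104, adjusted p = 0.996) for Spry2. Without the number 2 libraries the log2 fold changes were 0.12 (SE 0.102, adjusted p = 0.531, edgeR) and 0.00 (SE 0.126, adjusted p = 0.999) for Spry1, and -0.01 (SE 0.0805, adjusted p = 0.972) and -0.06 (SE 0.106, adjusted p = 0.926) for Spry2. The response genes of the pathway were thus not called together, since Etv4, Etv5, Spry4 and Dusp6 passed in these fits and Spry1 and Spry2 did not.

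**Figure D2:**
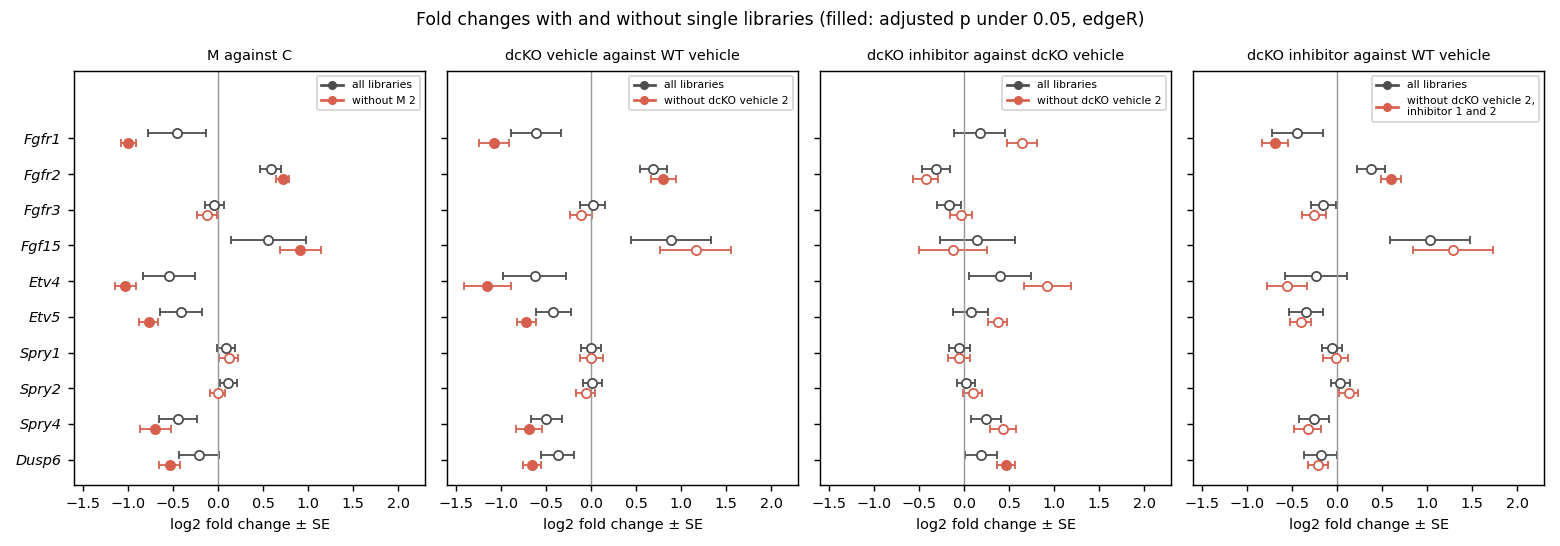
Log2 fold change (horizontal axes) with its SE for each member in 4 comparisons, with all libraries in grey and without the libraries named in each panel in orange. Filled points have an adjusted p under 0.05 in edgeR. In dcKO Wnt inhibitor against dcKO vehicle, the orange fit leaves out dcKO vehicle 2 only and keeps dcKO Wnt inhibitor 1 and 2. No grey point is filled, and in orange 7 are filled in M against C, 6 in dcKO vehicle against WT vehicle, 1 in dcKO Wnt inhibitor against dcKO vehicle and 2 in dcKO Wnt inhibitor against WT vehicle.

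Cell type markers were set beside these values, since in bulk tissue fewer cells of a type and less RNA per cell cannot be told apart. The summed level of 10 neuronal markers was 10222 to 11315 CPM in untreated C and 8841 to 10544 CPM in untreated M, and 8733 to 11425 CPM in WT vehicle and 7833 to 9601 CPM in dcKO vehicle. In the libraries M 3 and 4 it was 8841 and 9026 CPM, below every C library, and in dcKO vehicle 1, 3 and 4 it was 7833 to 8664 CPM, below every WT vehicle library. Without M 2 the test called 4 of the 10 neuronal markers lower and none higher, beside 12.4% of all genes, and without dcKO vehicle 2 it called 2 lower and none higher, beside 3.4%. The sum of 10 radial glial markers ran from 2426 to 2670 CPM in untreated C, from 2380 to 2709 CPM in untreated M, from 2389 to 2751 CPM in WT vehicle and from 2403 to 2723 CPM in dcKO vehicle, with overlap in both experiments. In M 3 and 4 alone it was 2380 and 2402 CPM, just below every C library. Without M 2 the test called 6 of the 10 radial glial markers, 4 higher and 2 lower, with log2 fold changes of the 10 between -1.20 and 0.71, and without dcKO vehicle 2 it called 2 lower and none higher. The part of the neuronal and radial glial markers in the values of the members was not tested.

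The Wnt inhibitor was compared with vehicle in dcKO litters to ask whether inhibition of Wnt signalling moved the members. No member passed an adjusted p under 0.05 in dcKO Wnt inhibitor against dcKO vehicle in edgeR, where 0.055% of all genes (9 of 16372) did, and none had an unadjusted p under 0.05, where 15.8% of all genes did. DESeq2 called none either, beside 1.98% of all genes. Dusp6 held 30.5, 31.3, 31.1 and 28.5 CPM in dcKO Wnt inhibitor 1 to 4. All 4 libraries lay between the library labelled dcKO vehicle 2 (40.7 CPM) and the other dcKO vehicle libraries (20.7 to 23.9 CPM), and the log2 fold change with all libraries was 0.19 (SE 0.179, adjusted p = 0.636, edgeR). Without dcKO vehicle 2, Dusp6 was the 1 member that passed, with a log2 fold change of 0.47 (SE 0.0999, adjusted p = 0.0448, edgeR), beside 1.09% of all genes. In that fit 5 members were higher and 1 lower without overlap, beside 11.2% and 11.3% of all genes. The fit left out a library in doubt on the vehicle side only. It kept dcKO Wnt inhibitor 1 and 2, whose Smarcc1 measured 214 and 252 CPM.

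Fgfr1, Etv4, Etv5 and Spry4 had positive values in that fit and Fgfr2 a negative one, and none of these passed. Fgfr1 held 212, 166, 118 and 156 CPM in dcKO Wnt inhibitor 1 to 4, with a log2 fold change of 0.17 (SE 0.281, adjusted p = 0.804, edgeR) with all libraries and 0.64 (SE 0.164, adjusted p = 0.0702) without dcKO vehicle 2. Etv4 held 21.3, 12.2, 9.72 and 12.3 CPM, with a log2 fold change of 0.39 (SE 0.347, adjusted p = 0.603) with all libraries and 0.92 (SE 0.262, adjusted p = 0.095) without dcKO vehicle 2. For both genes the highest inhibitor library was number 1, whose Smarcc1 level was 214 CPM. Fgfr2 held 47.1, 52.1, 70.2 and 68.7 CPM, with the lowest values in numbers 1 and 2, and its log2 fold change was -0.32 (SE 0.151, adjusted p = 0.33) with all libraries and -0.43 (SE 0.141, adjusted p = 0.132) without dcKO vehicle 2.

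When dcKO Wnt inhibitor 1 and 2 were also left out, no member passed against dcKO vehicle in edgeR, beside 1.02% of all genes, and 5 members had an unadjusted p under 0.05, beside 17.9% of all genes. With 2 libraries left against 3, 6 members were higher and 1 lower without overlap, among them Spry2 at 34.4 and 36.0 CPM against 29.1 to 32.7 CPM (log2 fold change 0.19, SE 0.112, adjusted p = 0.414, edgeR), beside 24.7% and 23% of all genes. Dusp6 then had a log2 fold change of 0.44 (SE 0.115, adjusted p = 0.0884, edgeR), and Fgfr1 one of 0.40 (SE 0.146, adjusted p = 0.187). The inhibitor libraries also differed in choroid plexus markers. The sum of the 5 choroid plexus markers tested was 841, 160, 478 and 7.05 CPM in dcKO Wnt inhibitor 1 to 4, against 5.66 to 11.5 CPM in dcKO vehicle and 6.62 to 129 CPM in WT vehicle. The part of choroid plexus tissue in these values was not tested, and the level of Dusp6 was 31.1 CPM in number 3 and 28.5 CPM in number 4, which held 478 and 7.05 CPM of these markers.

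Against WT vehicle, the inhibitor libraries gave no call among the members in edgeR, beside 0.0977% of all genes (16 of 16372). DESeq2 gave none, beside 4.37% of all genes. Fgfr2 and Fgf15 had an unadjusted p under 0.05 in edgeR, beside 19.8% of all genes, with log2 fold changes of 0.38 (SE 0.152, adjusted p = 0.206) and 1.03 (SE 0.442, adjusted p = 0.223). Fgf15 held 2.57, 3.04, 1.56 and 6.66 CPM in dcKO Wnt inhibitor 1 to 4, and number 4 alone was above every vehicle library. Etv5 held 34.4, 30.3, 27.3 and 32.6 CPM, all below the lowest WT vehicle library at 37.4 CPM, and its log2 fold change was -0.35 (SE 0.191, adjusted p = 0.32, edgeR). Dusp6 likewise lay below every WT vehicle library, with a log2 fold change of -0.19 (SE 0.179, adjusted p = 0.583). These 2 of the 10 members were lower without overlap and none was higher, beside 4.02% and 3.48% of all genes.

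Without dcKO vehicle 2 and dcKO Wnt inhibitor 1 and 2, Fgfr1 and Fgfr2 passed against WT vehicle, beside 7.38% of all genes (1241 of 16815). Fgfr1 fell with a log2 fold change of -0.69 (SE 0.143, adjusted p = 0.0197, edgeR), against -0.44 (SE 0.281, adjusted p = 0.394) with all libraries, and Fgfr2 rose with one of 0.60 (SE 0.106, adjusted p = 0.011). Etv5 narrowly missed the limit at -0.41 (SE 0.114, adjusted p = 0.0581), and Fgf15 and Dusp6 had values of 1.28 (SE 0.443, adjusted p = 0.109) and -0.21 (SE 0.111, adjusted p = 0.265). The comparisons of dcKO Wnt inhibitor with dcKO vehicle and with WT vehicle share their inhibitor libraries, and those with dcKO vehicle share the latter with the comparison of genotypes, so the values are given side by side only.

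**Figure D3:**
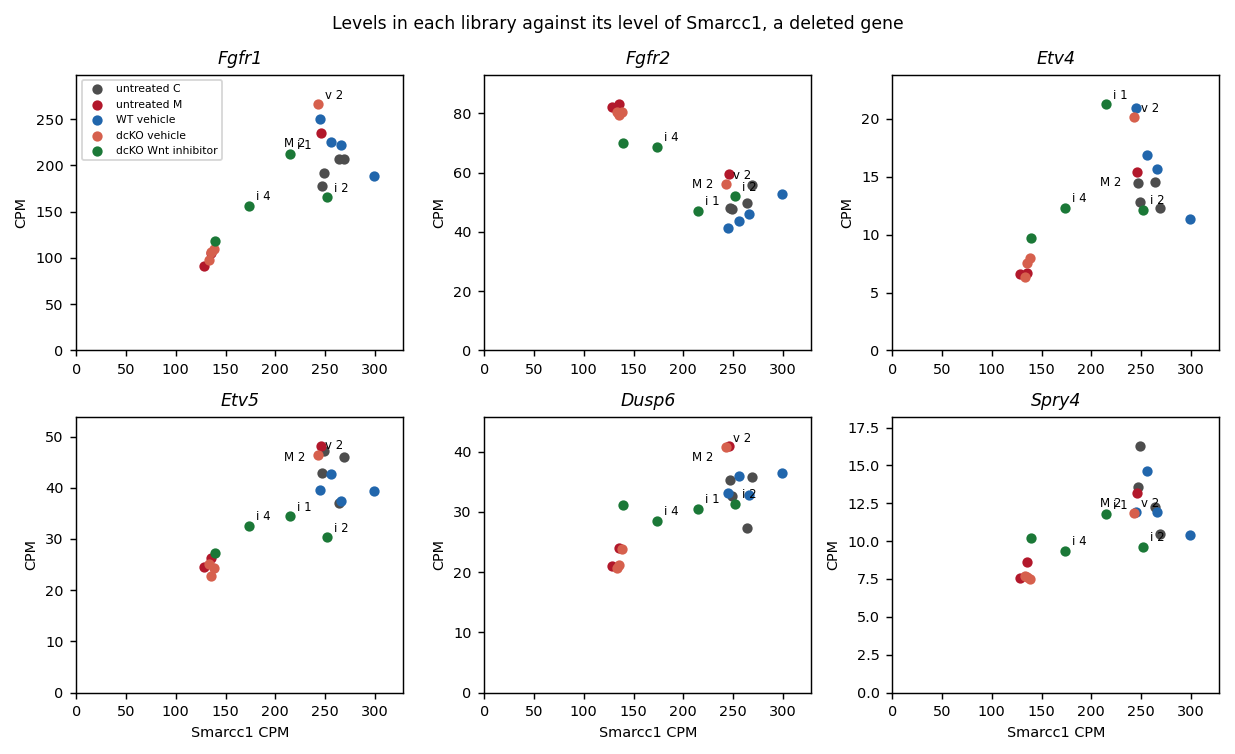
CPM of 6 members (vertical axes) against CPM of Smarcc1 (horizontal axes) in the 19 libraries, both from 0 and coloured by group. The libraries labelled M 2 and dcKO vehicle 2 (v 2) and dcKO Wnt inhibitor 1, 2 and 4 (i 1, i 2, i 4) are marked. The libraries with 128 to 140 CPM of Smarcc1 hold 90.9 to 118 CPM of Fgfr1 and 70.2 to 83.2 CPM of Fgfr2.

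The difference between the genotype effects of the treated and the untreated experiment was tested as an interaction. No member passed, and no gene did (0% of 15999 genes in edgeR, and 0% in DESeq2). At an unadjusted p under 0.05 no member passed beside 0.544% of all genes. The differences among members ran from -0.16 for Dusp6 (SE 0.324) to 0.35 for Fgf15 (SE 0.593), with an adjusted p of 0.99995 for each. Without untreated M 2 and dcKO vehicle 2, they ran from -0.12 for Etv4 (SE 0.246) to 0.26 for Fgf15 (SE 0.313) and again 0% of genes passed. With same-numbered libraries of both experiments taken as a block, no member had an unadjusted p under 0.05 in edgeR, beside 162 of 15999 genes.

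The genes whose log2 CPM ran most closely with each member over the 12 treated libraries were listed as a description. These libraries share their groups and hold the libraries that stand apart, so a high r shows only that levels were high and low in the same libraries. Fgfr1 ran with the semaphorin gene Sema7a (r = 0.981 over 12 treated and 0.974 over 7 untreated libraries), and Fgfr2 with the serine synthesis gene Psat1 (0.984 and 0.995) and the transcription factor gene Tfap2c (0.977 and 0.992). Etv4 ran with Efs (0.978 and 0.849), Emx1 (0.978 and 0.812) and Loxl1 (0.977 and 0.802). Etv5 ran with Fezf2 (0.959 and 0.935) and Tmtc1 (0.953 and 0.954). Dusp6 ran with Lhx2 (0.957 and 0.947), Pou3f3 (0.957 and 0.976) and Tmtc1 (0.956 and 0.914). Of the genes named for these members, Emx1, Fezf2, Lhx2 and Pou3f3 are transcription factor genes of the developing cortex. Fgfr1 was itself among the 3 nearest genes of Etv5 (0.952 and 0.941). Spry4 ran with the neuropeptide gene Nts (0.972 and 0.984), and Fgf15 with the transcription factor gene Zic2 (0.896 and 0.801). For Spry2 the nearest gene was Cinp at 0.809 over treated and 0.334 over untreated libraries, the lowest among the leading genes of the 10 members. Without the 4 libraries in doubt, r was taken over 9 treated and 6 untreated libraries. It was 0.983 and 0.981 for Fgfr1 with Sema7a, 0.983 and 0.995 for Fgfr2 with Psat1, 0.958 and 0.931 for Etv5 with Fgfr1, and 0.914 and -0.00072 for Spry2 with Cinp.

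The wider pathway was followed with a list of 73 other genes, made up of further ligands, co-receptors, heparan sulphate enzymes, transducers and response genes, of which 63 were tested in the untreated and 64 in the treated experiment. With all libraries none passed in any comparison in edgeR. At an unadjusted p under 0.05, 14 (22.2%) passed in M against C, where 16% of all genes did, and 6 (9.38%) in dcKO vehicle against WT vehicle, where 9.46% did. In dcKO Wnt inhibitor 9 (14.1%) passed against dcKO vehicle beside 15.8% of all genes, 20 (31.2%) passed against WT vehicle beside 19.8%, and in the interaction 0 passed beside 0.544%. DESeq2 called 3 of 63 genes higher and 0 lower in M against C (Ccnd1, Gpc4 and Sdc4), beside 3.44% of all genes. It called 2 of 65 higher and 0 lower in dcKO vehicle against WT vehicle (Gpc4 and Sdc4), beside 0.636%. In dcKO Wnt inhibitor it called 0 of 65 against dcKO vehicle, beside 1.98%. Against WT vehicle it called 4 higher and 2 lower of 64, beside 4.37%. Without M 2, 5 were higher and 3 lower, a share of 12.7% where 12.4% of all genes passed, so the list did not stand above the share of all genes. It had a median log2 fold change of -0.04 over the list and 0.00 over all genes. The co-receptor gene Sdc4, a syndecan, rose by a log2 fold change of 1.74 (SE 0.176, adjusted p = 0.000173, edgeR), and Gpc4, a glypican that binds FGF, by 0.89 (SE 0.115, adjusted p = 0.000925). Flrt1, which encodes a membrane protein that binds FGF receptors, had a log2 fold change of -1.54 (SE 0.161, adjusted p = 0.000279) and Fgfrl1, a receptor gene without a kinase domain, one of -1.05 (SE 0.125, adjusted p = 0.000503). The cell cycle gene Ccnd1, with 0.60 (SE 0.0789, adjusted p = 0.000953), and Flrt2, with 0.32 (SE 0.0667, adjusted p = 0.0123), completed the 6 smallest p-values.

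Without dcKO vehicle 2, the list gave 3 higher and 2 lower genes in dcKO vehicle against WT vehicle (7.81%, beside 3.4% of all genes), with a median of -0.06 against -0.01 over all genes. Sdc4 (log2 fold change 1.64, SE 0.258, adjusted p = 0.0063, edgeR), Gpc4 (0.90, SE 0.197, adjusted p = 0.026) and the ligand gene Fgf17 (1.42, SE 0.319, adjusted p = 0.0287) were higher. Fgfrl1 (-0.98, SE 0.209, adjusted p = 0.0229) and Flrt1 (-1.24, SE 0.308, adjusted p = 0.0463) were lower. Against dcKO vehicle the inhibitor gave no call in the list in edgeR, with or without the libraries in doubt. Without dcKO vehicle 2 and dcKO Wnt inhibitor 1 and 2, 5 list genes were higher and 3 lower in dcKO Wnt inhibitor against WT vehicle (12.5%, beside 7.38% of all genes). The 6 with the smallest p were Sdc4 (1.45), Gpc4 (0.75), Flrt1 (-1.29), the MAPK response gene Phlda1 (0.67), the heparan sulphate enzyme gene Ndst1 (-0.55) and the ligand gene Fgf3 (1.95).

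H3K27me3 was examined at each locus, taken as the gene and the 2000 bp before its start, in the peaks called per library. The libraries were uneven. Kept tags, at 1 per position, ran from 2420911 to 28335352, peaks covered 6.01 to 29.5 Mb in C and 7.08 to 58.58 Mb in K, and K 4 held the most. Fgfr1 (chr8:25518759-25575718) had no peak in any of the 8 libraries and Spry2 had 1 in K 4 only. Etv4 had a peak in all 8 libraries, as did 4.78% of loci (1040 of 21774). Peaks were found at Spry4 in 7 libraries, at Etv5 and Fgf15 in 6, at Fgfr3 in 5, and at Fgfr2, Spry1 and Dusp6 in 3.

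The mark covered the largest shares at Etv4 (chr11:101769748-101785310) and Fgf15 (chr7:144896532-144900953). Peaks covered 7.37%, 46.84%, 2.28% and 25.26% of the Etv4 locus in C 1 to 4 and 22.68%, 4.82%, 43.18% and 91.19% in K 1 to 4. At Fgf15 they covered 36.59%, 85.53%, 0% and 78.25% in C 1 to 4 and 46.33%, 0%, 60.0% and 95.75% in K 1 to 4. In both genes the groups overlapped, and C 3 and K 2, which are 2 of the 4 libraries with the fewest kept tags, held the least of their groups. The exact permutation test over the 8 libraries gave p = 0.514 for Etv4 and p = 1.0 for Fgf15 (two-sided, not adjusted). At Fgf15, which had the lowest RNA level of the 10 genes, every peak found held the start of the gene.

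**Figure D4:**
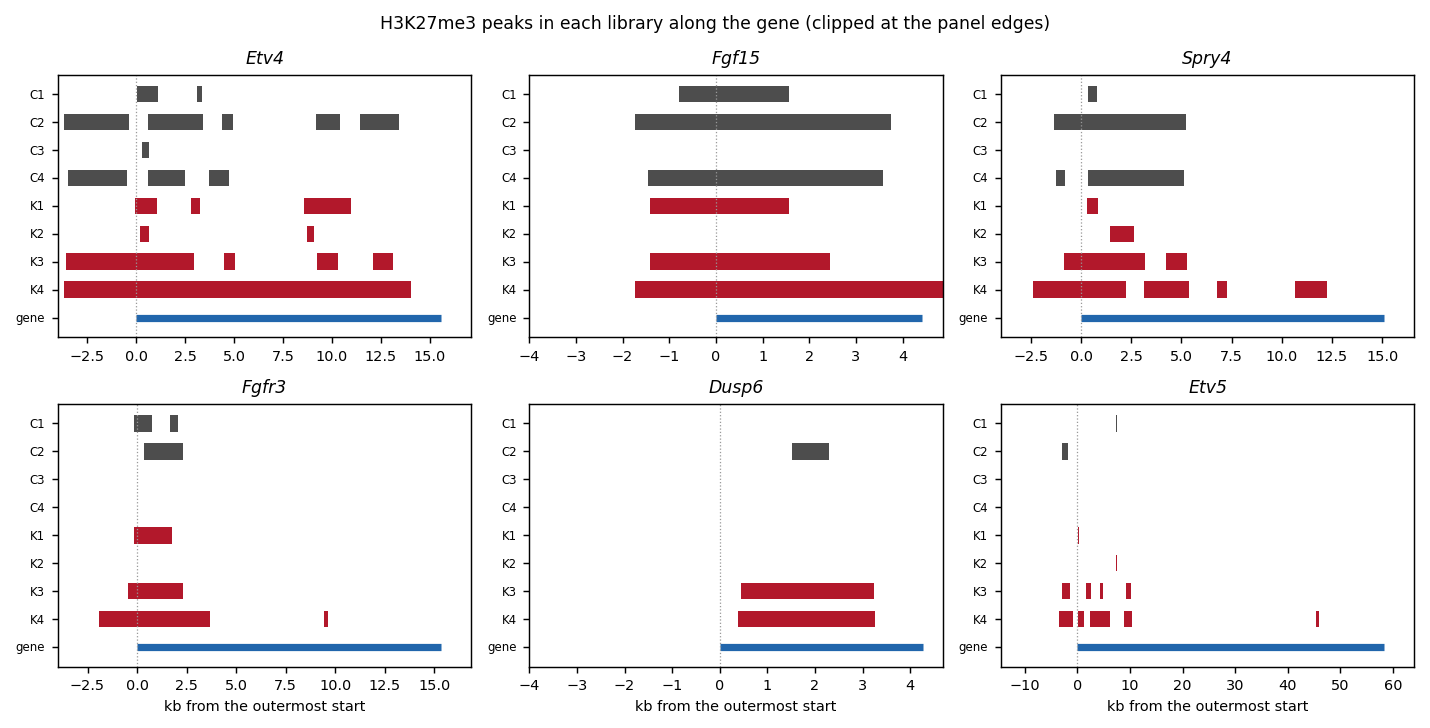
H3K27me3 peaks (bars) in libraries C 1 to 4 (grey) and K 1 to 4 (red) along 6 members, with the gene drawn in blue and distance in kb from its outermost start on the horizontal axes. Peaks at Etv4 occur in all 8 libraries and at Fgf15 in 6, where each holds the start. At Etv5 the peaks of K 3 and K 4 are more numerous than those of the other libraries.

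Etv5 was the 1 member of 9 tested whose covered share did not overlap between the groups. Peaks covered 0.36%, 0.35%, 0% and 0% of its locus in C 1 to 4 and 0.51%, 0.49%, 5.01% and 13.78% in K 1 to 4, a mean of 0.18% ± 0.21 against 4.95% ± 6.26 (SD, n = 4 each). The exact permutation p of 0.0286 is the smallest that 4 against 4 libraries can give, is not adjusted for the 9 members tested, and is reached with K higher by 0.192% of the 10919 loci with a peak (21). The shares in K 1 and K 2 rest on a peak of 308 bp and of 293 bp. Of these loci 78.3% had a higher mean share in K than in C. Without K 4 the difference for Etv5 was 1.82 percentage points, and with 7 libraries the exact permutation test cannot go below p = 0.0571.

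The remaining loci overlapped between the groups, with an exact p between 0.286 and 1.0. Peaks covered 12.43% of the Dusp6 locus in C 2 and none in the other C libraries, and 44.78% and 46.24% in K 3 and K 4 and none in K 1 and K 2. At Fgfr3 they covered 0% to 11.62% in C and 0% to 33.65% in K, and at Spry4 0% to 38.48% in C and 3.23% to 50.14% in K. At Fgfr2 the share was at most 0.42% in C and 1.97% in K, in peaks whose nearest edge was 198 to 13840 bp from the start. In each of these genes K 4, the library with the most sequence in peaks, held the highest share.

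**Figure D5:**
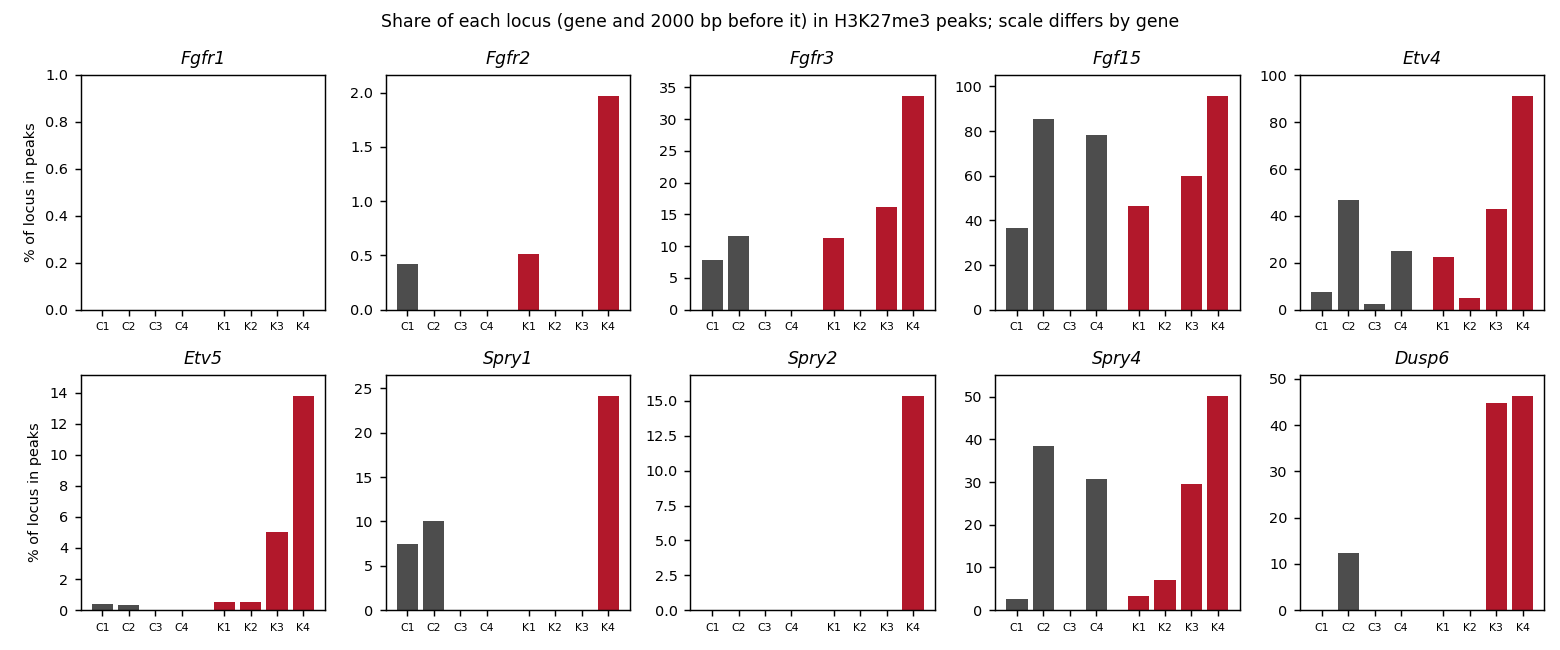
Percent of each locus in H3K27me3 peaks (vertical axes, from 0, with a scale of their own in each panel) in libraries C 1 to 4 (grey) and K 1 to 4 (red). K 4 is the highest library at all 9 members with a peak, and Fgfr1 has no peak in any library.

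Peaks were merged over libraries into 22220 regions that 2 or more libraries shared, of which 12 lay at 8 members and 5 held a start. No region passed in K against C in limma (0% at an adjusted p under 0.05), and 0.221% (49) had an unadjusted p under 0.05. The 12 regions had log2 differences in fold enrichment between -0.38 and 1.25, of which 11 were positive and 1, at Spry1, was negative, and their lowest unadjusted p was 0.111 in limma (adjusted p = 1). Of all regions 59.8% were positive, with a median of 0.05. The signs of the 12 are not independent. Several of these regions lay at Etv5, and all but an intronic region of Etv5 held a peak of K 4. The merged region over a start of Etv5 had the largest difference of the 12, with peaks in K 1 and K 4 (7.54-fold and 4.23-fold over input) and none in C, and an SE of 0.783. Only the peak of K 4, the library with the most sequence in peaks, held that start. The peak of K 1 lay 57 bp from the nearest start. At Etv4, the highest peak of a library ran from 4.17-fold in C 2 to 11.3-fold over input in K 2.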

How the data were processed

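The labels give mouse embryonic cortex at E17.5. The authors aligned reads with STAR to mm10 and used featureCounts to count them per Ensembl gene, and the deposited values are raw counts, not normalized. The gene annotation is not given in the sources used here, and the RNA kit does not mark strand, so reads of Fgfr1, Fgf15 and Dusp6 cannot be told from those of the lncRNA genes that overlap them. For H3K27me3 the authors ran MACS2 in broad mode on each library (q-value under 0.1) with the input pooled per group as background. The deposited peak lists hold the fold enrichment over input, the pileup signal and the q-value as −log10 for every peak, per the file headers.

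Counts were fitted over all genes with edgeR 4.0.16 in R 4.3.3 (TMM, filterByExpr, robust quasi-likelihood test, Benjamini-Hochberg adjusted p under 0.05), the 7 untreated libraries alone and the 12 treated libraries together. DESeq2 1.42.0 was an alternative. Rows that name no gene held 0 reads. Regions were assigned to a locus where they overlapped the gene or the 2000 bp before its RefSeq start, and their log2 fold enrichment, set to that of 1 where a library had no peak, was tested with limma 3.58.1. Shares of loci were compared by two-sided exact permutation tests. Fits were tested on simulated data with a fixed spread and no library that stood apart. That test therefore does not show how the fits behave under the spread of these libraries. The members, the wider list, the cell type markers and the tests were chosen with earlier results of these data known. The genes named are the members, Smarcc1 and Smarcc2, up to 6 genes of the wider list per fit with the smallest p among those that passed, the nearest genes by r, and marker genes that show how libraries match. Fits without untreated M 2 or dcKO vehicle 2 belong to a series that left out each library in turn, and those without several libraries, and the block over both experiments, were chosen after seeing the data. Within comparisons, deviations of same-numbered libraries from their group means gave r from -0.311 to 0.403 over all genes tested. Number 1 of WT vehicle gave 0.382 with dcKO vehicle and 0.403 with dcKO Wnt inhibitor. For H3K27me3, r was 0.579, -0.244, -0.323 and 0.309 for numbers 1 to 4. Pairing was thus not consistent, and the main fits have no replicate block.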

Additional observations from a re-analysis of the deposited data

Results flagged for a closer look

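Of 65 groups of 4 libraries examined, 13 held a library far from the others, and 9 of the 13 were the library labelled dcKO vehicle 2. Its gap to the nearest library, as a share of the whole range of the group, was 0.93 for Fgfr1, 0.966 for Fgfr2, 0.833 for Fgfr3, 0.88 for Etv4, 0.9 for Etv5, 0.963 for Spry4 and 0.844 for Dusp6, beside 0.954 for Smarcc1 and 0.947 for Smarcc2. These values are not independent, since they come from 1 library. The other 4 were shares of a locus in H3K27me3 peaks in which 1 library had a peak and the other 3 had none, so that the gap was 1.0 of the range. They were Fgfr2 in C 1, Dusp6 in C 2, and Spry1 and Spry2 in K 4. The limit used flags about 1 in 20 groups by chance where values are independent and continuous. The 13 of 65 cannot be set against that rate, since 9 share a library and the gap of the other 4 was fixed by their zeros.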

How the results depend on the processing

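Of 1214 values recomputed, 1054 were labelled the same, 36 weaker, 47 stronger and 77 changed sign. For a single value, weaker and stronger mean that it no longer passed or newly passed. For a count of calls they mean that the count fell or rose, and the same allows a small change. The weaker ones include the 8 settings of the Etv5 covered share without 1 library, which cannot pass. With all libraries, the number of genes called in M against C was 1 and became 3 with total counts alone, 154 (1 member, Fgfr2) without a filter on low counts, 531 (1 member) in DESeq2 and 0 with the replicate block. In dcKO vehicle against WT vehicle it was 1 and became 0 with DESeq2 size factors, 0 without a filter, 118 (1 member) in DESeq2, 5 with the replicate block and 0 with only the 2 groups compared. In dcKO Wnt inhibitor against dcKO vehicle it was 9 and became 20 without a filter and 343 in DESeq2, and against WT vehicle it was 16 and became 31, 58 and 732 with total counts, without a filter and in DESeq2, 189 with the block and 8 with only the 2 groups. Without dcKO vehicle 2 and dcKO Wnt inhibitor 1 and 2, chosen after seeing the data, these became 172 and 1241 (2 members). The block changed no other call, and same-numbered libraries did not pair consistently within a comparison. The cause of these changes was not tested. Spry1 in dcKO vehicle against WT vehicle turned positive, at 0.000751, 0.03001, 0.006409 and 0.002111 with DESeq2 size factors, total counts, no filter and the block. The interaction of Etv5 became 0.0579 without M 2 and dcKO vehicle 2 and 0.0895 with the block over both experiments, and that of Spry4 0.01429 and 0.002666. With pileup in place of fold enrichment, the regions at Etv5, Spry4 and Fgf15 gave -0.006422, -0.03561 and -0.03637, and with peaks of q under 0.01 the covered share of Spry4 was lower in K by -1.127 points.

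Leaving out 1 library at a time gave 0 to 1994 genes (0 to 7 members) in M against C, where 1994 came without M 2, and 0 to 562 genes (0 to 6 members) in dcKO vehicle against WT vehicle, where 562 came without dcKO vehicle 2. It gave 0 to 420 genes in dcKO Wnt inhibitor against dcKO vehicle and 0 to 1453 genes against WT vehicle, with the highest gene counts without dcKO Wnt inhibitor 2. Against dcKO vehicle 0 to 1 member passed, with 1 only without dcKO vehicle 2, and against WT vehicle 0 passed. Log2 fold changes that changed sign ran as follows. In M against C, Fgfr3 ran from -0.126 to 0.043 and Spry2 from -0.0067 to 0.185. In dcKO vehicle against WT vehicle, Fgfr3 ran from -0.117 to 0.0739, Spry1 from -0.0821 to 0.0413 and Spry2 from -0.0614 to 0.0607. In dcKO Wnt inhibitor against dcKO vehicle, Fgf15 ran from -0.41 to 0.39, Etv5 from -0.0395 to 0.37 and Spry2 from -0.0301 to 0.0915, and against WT vehicle Spry2 ran from -0.0055 to 0.0765. In the interaction, the ranges were -0.63 to 0.40 for Fgfr1, -0.0152 to 0.23 for Fgfr2, -0.0698 to 0.15 for Fgfr3, -0.0111 to 0.70 for Fgf15, -0.61 to 0.41 for Etv4, -0.31 to 0.36 for Etv5, -0.17 to 0.0282 for Spry2, -0.24 to 0.21 for Spry4 and -0.44 to 0.18 for Dusp6. For H3K27me3, an intronic region of Etv5 ran from -0.57 to 0.61 and the region of Fgf15 from -0.37 to 0.75. The difference in covered share ran from -16.3 to 17.3 points for Fgf15, 1.82 to 6.25 for Etv5, -4.36 to 3.69 for Spry1 and -4.68 to 11.4 for Spry4.

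Depth limits Fgf15, which stood at 0.67 to 6.66 CPM, and H3K27me3, where kept tags ran from 2420911 to 28335352 and reads per region were not used here. Each H3K27me3 value also rests on 1 pooled input per group.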
